A study of Mus musculus with 6 samples.

Results

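The antioxidant genes described here are 10 named genes of oxidative stress defence in the mouse trigeminal ganglion: Nfe2l2, Hmox1, Nqo1, Gclc, Gclm, Txnrd1, Srxn1, Sod1, Sod2 and Cat. They were taken by name from a table of 13673 protein-coding genes, and all 10 had a row. The trigeminal ganglion holds the cell bodies of the sensory neurons of the face together with their glia. It was profiled by poly(A) RNA sequencing in 6 libraries from wild-type mice, 3 given complete Freund's adjuvant (CFA, which raises local inflammation) and 3 given saline, all collected on day 3. The sources used here do not give strain, age, sex or injection site, and nothing names the animals behind the libraries, so p-values measure the spread between libraries. Values are FPKM, fragments counted per kilobase of a gene's transcript and adjusted for library depth, so that levels can be compared between genes.

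NRF2, the product of Nfe2l2, is a transcription factor that KEAP1 normally holds in the cytoplasm and sends for degradation. Oxidants and electrophiles modify KEAP1, and NRF2 then accumulates, enters the nucleus, pairs with a small MAF protein and binds antioxidant response elements. Its targets make glutathione, recycle thioredoxin, reduce quinones and degrade haem. Because much of this control acts on the protein, the Nfe2l2 transcript is not a measure of NRF2 activity. Superoxide dismutases turn superoxide into hydrogen peroxide, which catalase, glutathione peroxidases and peroxiredoxins remove.

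To show where the NRF2 binding letters lie, the promoters of these genes were searched for TGACNNNGC, the core of the antioxidant response element, on both strands. RefSeq promoter sequences (GRCm38.p6, 250 bases before to 50 after the annotated start) were at hand for 8 of the 10 genes, Hmox1 and Gclc excepted. A match was found in 5 genes, Nfe2l2, Srxn1, Gclm, Txnrd1 and Sod1. Among all 32851 promoter windows of the same length, 12.4% held one. Among the tested genes with a window, 16.9% held one in at least 1 window. The match of Srxn1 lay at positions 29 to 37 after the start. The other 4 lay before the start and are shown with their flanks, the 9 matching bases in capitals, on the gene's own strand.
Nfe2l2, chr2:75704875-75704913, minus strand: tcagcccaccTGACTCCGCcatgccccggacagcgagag
Gclm, chr3:122245403-122245451, plus strand: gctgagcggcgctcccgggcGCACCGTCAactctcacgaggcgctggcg
Txnrd1, chr10:82859094-82859142, plus strand: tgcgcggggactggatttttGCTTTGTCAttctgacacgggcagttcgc
Sod1, chr16:90220686-90220734, plus strand: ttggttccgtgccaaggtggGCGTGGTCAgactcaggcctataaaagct
In Nfe2l2 the motif read in the direction of transcription, and in the other 3 on the opposite strand. None of the matches overlapped an AP-1 site (TGACTCA or TGAGTCA). Txnrd1 has 3 annotated starts in that table, and 1 of them had the match. A match of letters is not evidence of binding, and the windows leave out more distant elements.

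No difference between CFA and saline ganglia was detected in any of the 10 genes. Over 12238 genes tested with limma, 0.0572% were called at an adjusted p below 0.05, and none of the 10 was among them. At an unadjusted p below 0.05, where 8.32% of all tested genes stood, there was again none of the 10, with p from 0.132 to 0.852 and adjusted p from 0.681 to 0.968. The FPKM ranges of the groups overlapped in 10 of 10 genes, while 14.5% of all tested genes had groups that did not overlap. On the log2(FPKM + 1) scale, 4 genes had a higher and 6 a lower mean with CFA, against 51.4% higher among all tested genes. The median log2 fold change of the 10 was −0.047 and that of all tested genes 0.0052. In size, the median change was 0.10 for the 10 genes and 0.11 for all tested genes.

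The 95% confidence intervals give the changes these libraries leave possible. Each of the 10 intervals included 0. In 9 genes the whole interval lay within a 1.5-fold change in either direction, and that of Gclm reached 1.53-fold higher. A p above the threshold does not show that the groups are equal.

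**Figure D1:**
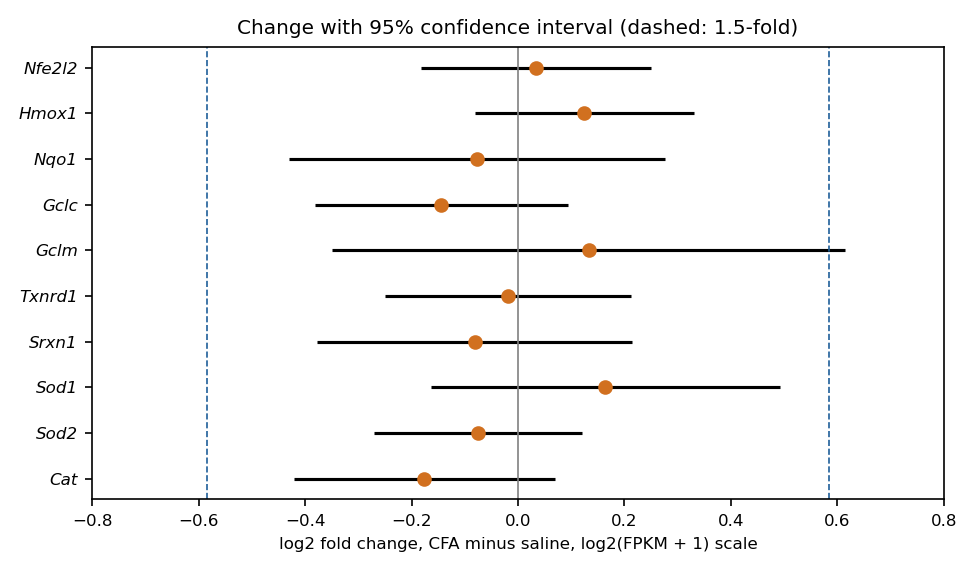
Log2 fold change, CFA minus saline, of each of the 10 genes with its 95% confidence interval (limma, 3 libraries per group). Each interval crosses 0, and the interval of Gclm alone passes the dashed line for a 1.5-fold change.

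Nfe2l2 itself, on chromosome 2 at 75675513 to 75704641 (GRCm38, as for the positions that follow), was steady across the 6 libraries. It stood at 15.0, 14.7 and 16.2 FPKM in CFA replicates 1, 2 and 3 and at 13.4, 15.4 and 16.1 in the saline replicates. The lowest value was saline replicate 1 and the highest CFA replicate 3, with the groups fully mixed. Means were 15.3 ± 0.776 FPKM with CFA and 15.0 ± 1.38 with saline (SD, n = 3), which differ by 0.034 on the log2 scale (SE 0.090, limma adjusted p = 0.927). Its direction turned without CFA replicate 3 or without saline replicate 1 (−0.0047 and −0.037) and when libraries were scaled to a common total of nuclear-encoded genes (−0.011). Over all tested genes, those whose deviations across the 6 libraries came closest to those of Nfe2l2 were Arhgef4, Camkk1 and Atp6v1b2, with mean absolute differences of 0.014, 0.016 and 0.019 on the log2 scale. Among the other 9 antioxidant genes the closest was Txnrd1 at 0.056, which ranked 575 among 12237 genes.

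Hmox1, the inducible haem oxygenase that opens haem into biliverdin, iron and carbon monoxide, is a classical stress-induced gene and is also strongly expressed by macrophages. Its FPKM was 12.3, 14.5 and 14.1 in the CFA replicates and 12.4, 12.9 and 11.996 in the saline replicates. CFA replicates 2 and 3 were above every saline library, and CFA replicate 1 fell among them. Group means were 13.7 ± 1.17 and 12.4 ± 0.465 FPKM (SD, n = 3), and the log2 fold change was 0.13 (SE 0.086, adjusted p = 0.710). Without CFA replicate 1 the groups no longer overlapped (log2 fold change 0.19), as in 20.2% of all genes tested without that library, and the gene was still not called. Of 16 macrophage markers, 14 were higher with CFA and 10 of these had an unadjusted p below 0.05. Among all tested genes, 51.4% were higher and 5.37% were higher at that threshold. The macrophage markers summed to 243 to 269 FPKM with CFA and 185 to 522 with saline. The highest sum was that of saline replicate 3, where the myeloid lysozyme gene Lyz2 alone stood at 396. None of the 16 was listed at 0. The part of macrophages in the Hmox1 values was not tested, and in whole tissue more cells of a type and more RNA per cell cannot be told apart. Hmox1 lies on chromosome 8 at 75093621 to 75100589.

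Glutathione is made from glutamate and cysteine by glutamate-cysteine ligase, which has a catalytic subunit (Gclc) and a modifier subunit (Gclm). Gclc, on chromosome 9 at 77754535 to 77794485, had 12.9, 14.8 and 12.5 FPKM in the CFA replicates and 13.5, 15.1 and 16.0 in the saline replicates. CFA replicates 1 and 3 were below every saline library, and CFA replicate 2 lay between saline replicates 1 and 2. The log2 fold change was −0.14 (SE 0.099, adjusted p = 0.710; means 13.4 ± 1.28 and 14.9 ± 1.26 FPKM, SD, n = 3). Without CFA replicate 2 or saline replicate 1 the groups were separate (−0.22 and −0.21), still without a call. Of all tested genes, 34.3% and 29.2% were separate in those fits.

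Gclm, on chromosome 3 at 122245557 to 122270732, was the most variable of the 10 genes. It read 18.6, 22.0 and 17.6 FPKM with CFA and 13.0, 23.3 and 17.8 with saline, so that both the lowest and the highest of the 6 values were saline libraries, 1.79-fold apart. Means were 19.4 ± 2.32 and 18.0 ± 5.14 FPKM (SD, n = 3; log2 fold change 0.13, SE 0.20, adjusted p = 0.850). The direction rested on saline replicate 1: without it the log2 fold change was −0.071, and without saline replicate 2 it was 0.33. Exons of Gclm overlap the pseudogene Gm6061 on the same strand and the noncoding gene Gm17494 on the other, so reads from those loci may enter its value. The ratio of Gclc to Gclm FPKM was 0.691, 0.673 and 0.706 in the CFA libraries and 1.04, 0.648 and 0.901 in the saline libraries. The CFA ratios were tightly grouped and fell inside the wider saline range.

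Thioredoxin reductase, sulfiredoxin and the quinone reductase complete the typical NRF2 targets. Txnrd1, the cytosolic selenoenzyme that keeps thioredoxin reduced, had 11.4, 12.04 and 11.1 FPKM with CFA and 10.2, 12.4 and 12.4 with saline. All CFA values lay within the saline range. Its log2 fold change was the smallest in size of the 10, −0.019 (SE 0.096, adjusted p = 0.968), and turned positive without CFA replicate 3, saline replicate 2 or saline replicate 3 (0.0050, 0.023 and 0.025). Without saline replicate 1 the groups did not overlap (log2 fold change −0.10), as in 29.2% of all tested genes. The gene lies on chromosome 10 at 82833951 to 82897712 and has 8 annotated transcripts, which a single FPKM merges.

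Srxn1, on chromosome 2 at 152105516 to 152111376, encodes sulfiredoxin, which rescues overoxidised peroxiredoxins. Its values were 56.7, 54.4 and 64.3 FPKM with CFA and 56.9, 73.2 and 56.5 with saline. One library of each group stood above the rest, saline replicate 2 highest, and the remaining 4 lay close together. The log2 fold change of −0.081 (SE 0.12, adjusted p = 0.850; means 58.5 ± 5.17 and 62.2 ± 9.54 FPKM, SD, n = 3) turned to 0.040 without saline replicate 2.

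Nqo1, the NAD(P)H quinone reductase that is often read as a marker of NRF2 activity, was the lowest of the 10 genes. It had 7.97, 10.2 and 7.89 FPKM with CFA and 7.55, 9.53 and 10.6 with saline. In each group the libraries spread over about the same range. The log2 fold change was −0.077 (SE 0.15, adjusted p = 0.886; means 8.67 ± 1.29 and 9.23 ± 1.55 FPKM, SD, n = 3), and 0.020 without saline replicate 3. Nqo1 lies on chromosome 8 at 107388225 to 107403206.

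Sod1, Sod2 and Cat encode the enzymes that act directly on superoxide and hydrogen peroxide. Sod1, the copper-zinc superoxide dismutase of the cytosol on chromosome 16 at 90220742 to 90226322, had the highest FPKM of the 10. Its values were 580, 510 and 612 FPKM with CFA and 593, 498 and 436 with saline. The lowest library was saline replicate 3, and saline replicate 1 stood among the CFA values. Means were 567 ± 52.4 and 509 ± 79.1 FPKM (SD, n = 3; log2 fold change 0.16, SE 0.14, adjusted p = 0.738). The change was 0.058 without saline replicate 3, 0.28 without saline replicate 1, when the groups separated as in 29.2% of all tested genes, and 0.045 after quantile scaling.

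Sod2, the manganese superoxide dismutase of the mitochondrial matrix and a known target of NF-kB in inflammation, was nearly flat. Its FPKM was 24.1, 27.7 and 25.0 with CFA and 26.5, 25.9 and 28.6 with saline. Saline replicate 3 was highest and CFA replicate 1 lowest, with the groups overlapping in between. Means were 25.6 ± 1.88 and 27.0 ± 1.42 FPKM (SD, n = 3), and CFA was −0.075 from saline on the log2 scale (SE 0.082, adjusted p = 0.789). Mitochondrially encoded transcripts made up 7.24% of the FPKM total in CFA replicate 3 and 10.6% to 13.7% in the other libraries. Without CFA replicate 3 the log2 fold change of Sod2 was −0.059. Without CFA replicate 2 it was −0.13 and the groups did not overlap, as in 34.3% of all tested genes. Sod2 lies on chromosome 17 at 13007839 to 13018119.

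Cat, which encodes the peroxisomal catalase on chromosome 2 at 103453849 to 103485160, came nearest to a difference. It read 66.2, 72.2 and 56.0 FPKM with CFA and 71.7, 74.7 and 72.3 with saline. The saline libraries were close together, CFA replicates 1 and 3 lay below them, and CFA replicate 2 lay within their range. Means were 64.8 ± 8.20 and 72.9 ± 1.59 FPKM (SD, n = 3; log2 fold change −0.18, SE 0.10, unadjusted p = 0.132, adjusted p = 0.681). Leaving out CFA replicate 2 separated the groups (−0.26, unadjusted p = 0.0382, adjusted p = 0.365). In that fit 34.3% of all tested genes were separate and 13.0% had an unadjusted p below 0.05. Without saline replicate 1 the groups were also separate, as in 29.2% of all tested genes. Leaving out CFA replicate 3 brought the change to −0.076. Red blood cells are rich in catalase. Of 7 tested markers of red blood cells, 7 were higher with CFA, against 51.4% of all tested genes. None had an unadjusted p below 0.05, and the summed FPKM was 347 to 460 with CFA and 207 to 427 with saline. The part of red blood cells in the Cat values was not tested.

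**Figure D2:**
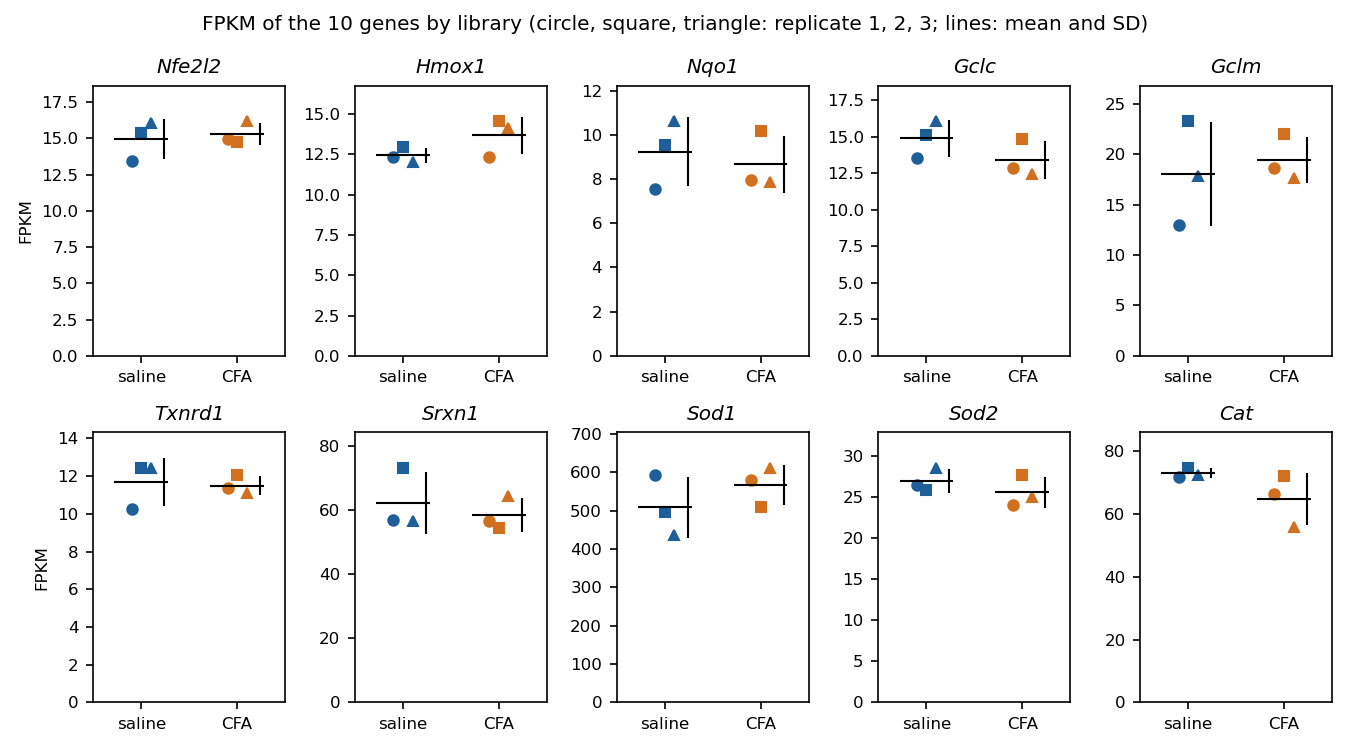
FPKM of each of the 10 genes in the 6 libraries, by group, on axes that start at 0 (horizontal line, mean; vertical line, SD; n = 3). In every panel the saline and CFA libraries overlap, with Gclm the most spread and Sod1 the highest, up to 612 FPKM.

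By level over the 6 libraries, Sod1 (mean 538 FPKM) came first and stood clear of Cat (68.9). Cat and Srxn1 (60.3) overlapped, and both were above Sod2 (26.3), whose libraries did not reach those of Gclm (18.7). From Gclm down through Nfe2l2 (15.1), Gclc (14.1), Hmox1 (13.0), Txnrd1 (11.6) and Nqo1 (8.95), each gene overlapped the next in its range over libraries. Sod1 was above 99.7% and Nqo1 above 64.1% of all rows in mean FPKM. The ratio of Sod1 to Sod2 FPKM was 24.1, 18.4 and 24.5 in CFA libraries and 22.4, 19.2 and 15.2 in saline libraries, so that the ranges overlapped and saline replicate 3 was lowest.

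The ratio of the highest to the lowest library ran from 1.19 (Sod2) to 1.79 (Gclm), while the ratios of the group means, CFA to saline, lay between 0.888 (Cat) and 1.12 (Sod1). In the CFA group, replicate 2 was the highest library for 7 of the 10 genes (Hmox1, Nqo1, Gclc, Gclm, Txnrd1, Sod2 and Cat), and replicate 3 the highest for the other 3 (Nfe2l2, Srxn1 and Sod1). CFA replicate 2 was in turn the lowest for those same 3. In the saline group, replicate 1 was the lowest library for 6 genes (Nfe2l2, Nqo1, Gclc, Gclm, Txnrd1 and Cat) and the highest for Sod1. Sod1 thus ran opposite to most of the others. The median deviation of the 10 genes from their own means was −0.073 in saline replicate 1, 0.092 and 0.081 in saline replicates 2 and 3, 0.072 in CFA replicate 2 and −0.060 and −0.059 in CFA replicates 1 and 3, on the log2 scale. These are descriptions of 6 libraries, and what lies behind them was not tested.

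**Figure D3:**
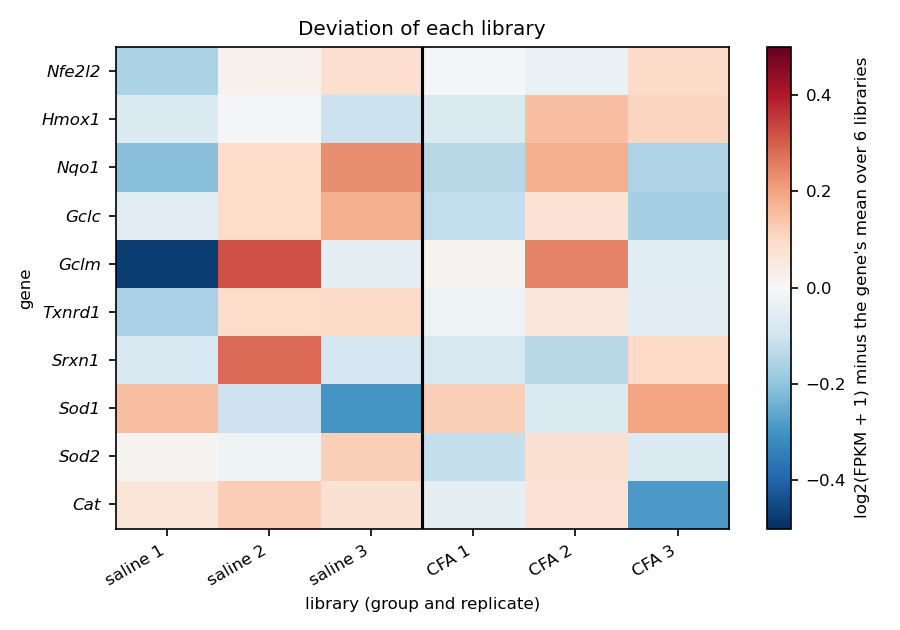
Deviation of log2(FPKM + 1) from each gene's mean over the 6 libraries, saline to the left of the line and CFA to the right. Gclm in saline replicate 1 is the deepest blue at −0.47, and Sod1 has the opposite sign to Nqo1 in each of the 6 libraries.

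Libraries and groups also differed in the levels of marker genes of several cell types and tissues. Summed FPKM of 12 neutrophil markers was 590 in saline replicate 3 and 337 in CFA replicate 2, against 60.6 to 86.9 in the other libraries. Pituitary markers summed to 190 to 4844 FPKM across the libraries and skeletal muscle markers to 2.77 to 227, both highest in saline replicate 3. Markers of central nervous system glia were higher with CFA in 10 of 10, with sums of 229 to 293 against 159 to 213. Of these, 8 had an unadjusted p below 0.05 and 7 had groups that did not overlap, with none called after adjustment. Among all tested genes, 51.4% were higher and 5.37% were higher at that unadjusted p. Groups did not overlap in 14.5% of all tested genes in either direction. In the higher direction, that of the 7 markers, these were 965 of 12238 genes. All 15 sensory neuron and all 10 satellite glia markers had rows, none listed at 0. Of the satellite glia markers 8 were higher with CFA, 4 of them at an unadjusted p below 0.05. The other 2 were lower, 1 of them, Cdh19, at an unadjusted p below 0.05. Cdh19 stood at 22.6 against 33.3 FPKM (limma unadjusted p = 0.00155, adjusted p = 0.218). Among all tested genes, 5.37% were higher and 2.95% lower at that threshold. The satellite glia sums were 2451 to 2997 FPKM with CFA and 1844 to 2278 with saline. The choroid plexus gene Ttr had the smallest p in the whole table, at a mean of 225 FPKM with CFA and 2.08 with saline. Ttr made up nearly all of the difference in the summed choroid plexus markers (220 to 297 against 31.5 to 37.1 FPKM). Aqp1 stood at 34.6 against 31.8 FPKM. Kl (0.693 against 0.354 FPKM) and Clic6 (1.28 against 0.688) were higher in every CFA library, but averaged below 1 FPKM and were not tested. Folr1, Kcne2 and Otx2 had no row. What lies behind these marker levels, and the parts of these cells and tissues in the antioxidant values, were not tested. Without saline replicate 3 the median log2 fold change of the 10 genes was 0.023, and without CFA replicate 2 it was −0.041, with none called in either.

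The wider oxidant defence was examined in 7 further lists. None of their 101 tested genes was called at the adjusted threshold. Unadjusted p values below 0.05 were found in 8 genes that were higher (5.37% of all tested genes were) and 5 that were lower (2.95% of all tested genes were), spread over 6 of the lists. Tested genes whose groups did not overlap numbered 1 higher and 2 lower among the NRF2 regulators, and 1 higher among other targets. There were 2 higher and 2 lower in the glutathione list, and 1 higher and 3 lower in the thioredoxin list. The haem list had 3 higher, the oxidant-producing list 1 higher and the superoxide dismutase list 0. Of all tested genes, 14.5% had such groups, in either direction.

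Among the regulators and partners of NRF2, 7 of 14 tested genes were higher and 7 lower, with a median log2 fold change of −0.00098. Keap1, the sensor and inhibitor, had 13.0, 14.5 and 16.8 FPKM with CFA and 13.6, 12.9 and 9.98 with saline, a change of 0.26 on the log2 scale (SE 0.14, adjusted p = 0.652). Only CFA replicates 2 and 3 exceeded the saline range. Bach1, a haem-sensing repressor of the same elements, was lower in every CFA library, but by little, at 4.64 ± 0.238 against 5.02 ± 0.116 FPKM (SD, n = 3; log2 fold change −0.094, adjusted p = 0.740). Mafg, a small MAF partner that shares exons with Sirt7, stood at 20.1 ± 3.19 against 19.1 ± 3.03 FPKM. Sqstm1, the autophagy receptor p62 that sequesters KEAP1, was at 166, 159 and 181 FPKM with CFA and 81.7, 165 and 149 with saline. Its low value in saline replicate 1 fell in the same library as that of Gclm. The kinase gene Gsk3b was lower (27.8 ± 3.16 against 33.0 ± 1.26 FPKM, unadjusted p = 0.0382) and the interferon-induced ubiquitin ligase gene Trim21 higher (2.88 ± 0.771 against 1.84 ± 0.219, unadjusted p = 0.0275), neither past adjustment (limma adjusted p = 0.580 and 0.567).

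Of the other NRF2 target genes, 16 of 22 tested were higher and 6 lower, at a median log2 fold change of 0.045. None was called, and only Esd, the S-formylglutathione hydrolase, had an unadjusted p below 0.05 (35.0 ± 3.65 against 26.6 ± 2.12 FPKM, unadjusted p = 0.00733, adjusted p = 0.380). The ferritin heavy chain gene Fth1 had the highest values at 2710 ± 241 against 2144 ± 489 FPKM, with saline replicate 3 lowest at 1619 (adjusted p = 0.643). The ferritin light chain gene Ftl1 was level at 163 ± 27.0 against 164 ± 51.3, and both ferritin genes have many near-identical pseudogenes, which leaves their values uncertain. In the pentose phosphate pathway, which supplies NADPH, G6pdx stood at 14.8 ± 0.736 against 15.0 ± 2.11 FPKM and Taldo1 at 71.9 ± 7.61 against 62.1 ± 5.54. Slc7a11, the cystine transporter that feeds glutathione synthesis and a strongly induced NRF2 target in many cells, was too low for the filter of a mean of 1 FPKM. It had 0.937, 1.17 and 0.938 FPKM with CFA and 0.507, 0.636 and 0.643 with saline. Every CFA library was above every saline library, and with no filter the log2 fold change was 0.33 (SE 0.093, unadjusted p = 0.00942, adjusted p = 0.431 over 13673 genes).

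**Figure D4:**
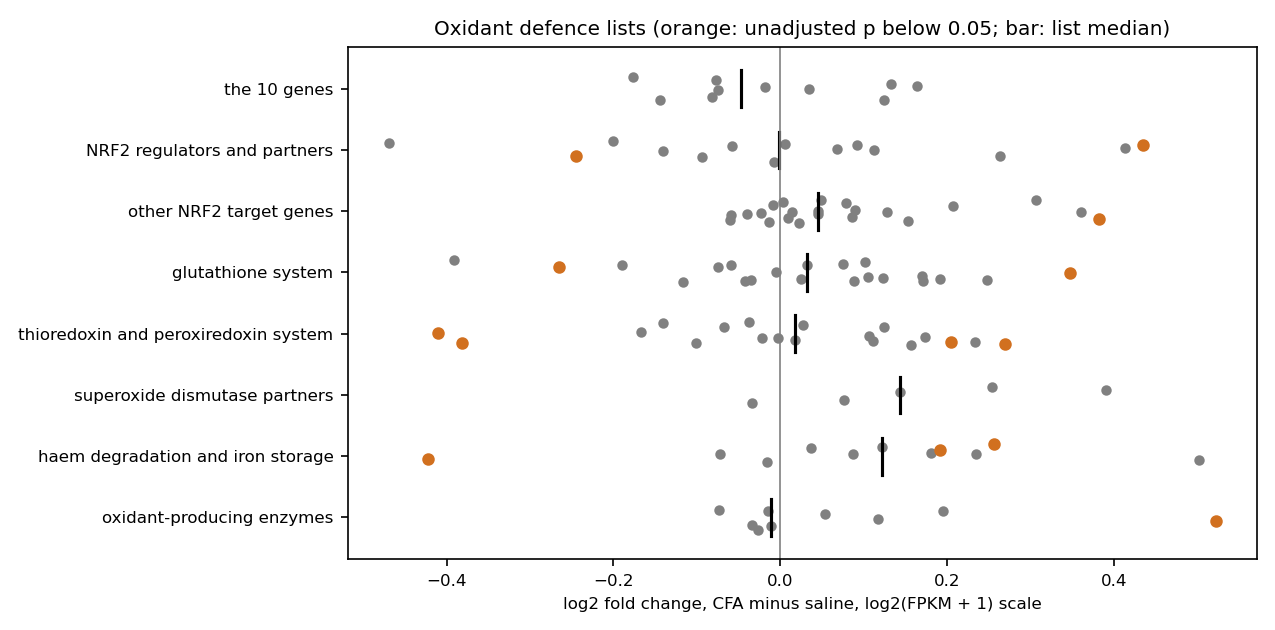
Log2 fold change, CFA minus saline, of every tested gene of the 10 and of the 7 further lists (1 point per gene; orange, unadjusted p below 0.05; vertical bar, list median). The 10 genes lie between −0.18 and 0.16 with no orange point, and the medians of all lists lie between −0.047 and 0.14.

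In the glutathione system, 12 of 21 tested genes were higher and 9 lower, with a median log2 fold change of 0.033. Glutathione reductase (Gsr) was nearly identical between groups, at 35.9 ± 0.363 against 35.3 ± 2.62 FPKM. The peroxidase Gpx1 (72.5 ± 1.12 against 68.9 ± 5.10) had a log2 fold change of 0.075. That of Gpx4, which detoxifies lipid peroxides (208 ± 4.42 against 193 ± 12.8), was 0.10, and neither peroxidase was called (limma adjusted p = 0.772 and 0.717). Glutathione synthetase (Gss) was higher in every CFA library, at 5.90, 5.48 and 6.20 FPKM against 4.50, 4.83 and 3.88 (log2 fold change 0.35, unadjusted p = 0.0112, adjusted p = 0.448). Its exons overlap genes on the other strand. Chac1, which degrades glutathione, was lower in every CFA library, at 1.43 ± 0.143 against 1.92 ± 0.154 FPKM (unadjusted p = 0.0285, adjusted p = 0.567).

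The thioredoxin and peroxiredoxin system had 10 of 19 tested genes higher and 9 lower, with a median log2 fold change of 0.017. Thioredoxin (Txn1) stood at 358 ± 34.1 against 319 ± 54.6 FPKM, and Prdx1, an NRF2-responsive peroxiredoxin, at 84.9 ± 22.4 against 93.0 ± 3.53, with CFA replicate 1 apart at 59.6. Sesn1, a stress-induced sestrin, had 19.2, 17.7 and 21.0 FPKM with CFA and 25.6, 25.1 and 25.5 with saline. The groups were well apart, and this was the smallest unadjusted p of all the lists (log2 fold change −0.38, SE 0.080, unadjusted p = 0.00237, adjusted p = 0.242). In the other direction, Prdx5 (106 ± 9.15 against 87.8 ± 9.95 FPKM) and Prdx6 (21.9 ± 1.49 against 18.8 ± 0.896) were higher at an unadjusted p of 0.0459 and 0.0389, named here after their values were seen (limma adjusted p = 0.593 and 0.580). Txnip, the inhibitor of thioredoxin, was lower in every CFA library, as Sesn1 was, at 9.29, 11.0 and 11.6 FPKM against 11.8, 14.8 and 17.1 (log2 fold change −0.41, unadjusted p = 0.0280, adjusted p = 0.567).

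Around the superoxide dismutases, 4 of 5 tested genes were higher and 1 lower, none with an unadjusted p below 0.05. The extracellular enzyme Sod3 was at 4.43 ± 0.245 against 4.56 ± 0.240 FPKM, the copper chaperone of Sod1, Ccs, at 25.6 ± 5.14 against 21.1 ± 3.28, and the copper importer Slc31a1 at 7.25 ± 0.330 against 5.63 ± 2.39. For Slc31a1, saline replicate 1 stood apart at 2.89 FPKM, with saline replicates 2 and 3 at 6.76 and 7.25. Its log2 fold change ran from 0.043 to 0.59 across fits without 1 library.

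In haem degradation and iron handling, 8 of 11 tested genes were higher and 3 lower, with a median log2 fold change of 0.12. The constitutive haem oxygenase Hmox2 was level at 46.0 ± 2.37 against 44.8 ± 2.46 FPKM, more than Hmox1 in both groups. Biliverdin reductase B (Blvrb) was at 11.1 ± 1.31 against 9.14 ± 0.714 (unadjusted p = 0.0468) and the electron donor Por at 12.2 ± 0.761 against 10.5 ± 0.106 (unadjusted p = 0.0397), neither past adjustment (limma adjusted p = 0.597 and 0.580). The groups of Blvrb and of Por did not overlap, as in 14.5% of all tested genes. The haemoglobin scavenger receptor Cd163 of macrophages was lower, at 1.41 ± 0.330 against 2.24 ± 0.579 FPKM (unadjusted p = 0.0397, adjusted p = 0.580), while most macrophage markers were higher.

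Among oxidant-producing enzymes, 4 of 9 tested genes were higher and 5 lower. Of the 18 listed, Nox1, Nox3, Nox4, Duox1, Duox2 and Nos2 had no row. Ncf4, Nos3 and Mpo averaged below 1 FPKM and were not tested. Cyba, the p22phox subunit shared by NADPH oxidases, had 10.7, 10.2 and 9.10 FPKM with CFA and 5.69, 7.53 and 6.84 with saline. The lowest CFA library exceeded the highest saline library (log2 fold change 0.52, SE 0.12, unadjusted p = 0.00317, adjusted p = 0.270). Cybb, its partner in phagocytes, was at 1.65 ± 0.649 against 1.79 ± 1.26 FPKM with no such separation (adjusted p = 0.995), and Maob, a mitochondrial amine oxidase, at 3.56 ± 0.209 against 3.05 ± 0.860. The means of 14 of 16 macrophage markers were also higher with CFA, Lyz2 and Cd163 being lower. So were 8 of 10 satellite glia and 10 of 10 central nervous system glia markers, against 51.4% of all tested genes. The summed macrophage markers were highest in saline replicate 3, where Lyz2 alone made up 396 of 522 FPKM. The part of macrophages and glia in the Cyba values was not tested.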

How the data were processed

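The authors deposited FPKM values of 6 libraries in 1 table, per the file headers. Per the submitters' processing notes, GRCm38 was used; the sources used here name no aligner, quantifier or annotation release. The larger group mean was at least 0.501 FPKM in every row, and 1 line had been emptied for this work. FPKM totals ran from 261183 to 275152 per library. They are not depths; the depth is unknown, so no counting interval is given. Rank correlations between libraries ran from 0.954 to 0.973.

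Genes averaging 1 FPKM or more were compared between CFA and saline as log2(FPKM + 1) with limma 3.58.1 (R 4.3.3; eBayes with trend after lmFit; no covariate; two-sided). Benjamini-Hochberg adjustment covered all 12238 genes tested, with a threshold of 0.05. Fold changes on this scale understate those of low genes. The functions were tested on simulated data. For 3 against 3 libraries an exact permutation test cannot go below p = 0.1, so none was run. The 10 genes and the lists were chosen with earlier results of these data known. From the lists, 20 genes were named whatever their values, with any called gene and the 2 of smallest p per list. Lyz2, Ttr, Aqp1, Kl, Clic6, Cdh19, Ncf4, Nos3 and Mpo were named after their values were seen. Exon overlaps came from GENCODE M21 and promoters from RefSeq. Alternatives were another pseudocount, filter or scaling, a replicate block and leaving out each library. Figures were drawn with matplotlib 3.10.9.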

Additional observations from a re-analysis of the deposited data

How the results depend on the processing

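None of the 10 antioxidant genes was called at an adjusted p below 0.05 under any of the 14 alternatives (smallest adjusted p 0.365, for Cat without CFA replicate 2). Their median log2 fold change ran from −0.096 to 0.031 when single libraries were left out, so its sign was not stable. Leaving out single libraries gave 0 to 1 of the 10 with an unadjusted p below 0.05 (5.02% to 13.0% of all tested genes), 0 to 4 with groups that did not overlap (20.2% to 34.3% of all tested genes), and 5 to 19 calls over all genes, against 7 with every library. Quantile scaling left 1 of the 10 without overlap, Cat (15.2% of all tested genes). Libraries with the same replicate number shared little deviation (correlations 0.080, 0.11 and −0.048). The labels do not say whether these numbers mark pairs. With the replicate block 1 gene of the whole table was called, none of the 10.

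Some log2 fold changes turned sign. Scaling to a common nuclear total gave −0.011 for Nfe2l2, −0.025 for Ftl1, −0.021 for Gsr and −0.0093 for Hmox2; quantile scaling gave −0.047 for Ftl1 and −0.011 for Gsr; a pseudocount of 0.1 gave 0.025 for Cybb. Across fits without 1 library, values ran from −0.037 to 0.085 for Nfe2l2, −0.20 to 0.020 for Nqo1, −0.071 to 0.33 for Gclm, −0.10 to 0.025 for Txnrd1, −0.15 to 0.040 for Srxn1, −0.033 to 0.19 for Mafg, −0.12 to 0.068 for G6pdx, −0.16 to 0.26 for Ftl1, −0.020 to 0.081 for Gsr, −0.32 to 0.066 for Prdx1, −0.0077 to 0.067 for Hmox2 and −0.20 to 0.34 for Cybb. The cause was not tested. Hmox1, Gclc, Sod1, Sod2 and Cat kept their direction in all 14. The number of libraries, 3 per group, and the unknown depth limit the precision.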
